A study of Mus musculus with 24 samples.

Results

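The core circadian clock loop was followed here as 10 genes: Arntl (also called Bmal1), Clock, Npas2, Per1, Per2, Per3, Cry1, Cry2, Nr1d1 and Nr1d2. They were chosen by name, as the probes whose accession maps to these symbols. No cut-off on a measured value was used, but earlier results of these data were known when the genes were chosen. Each gene had 1 probe on the array, and 8 of the 10 genes were measurable, among 21063 features tested in all (13026 named genes and 8037 unnamed probes). The tissue was epididymal white adipose tissue, a fat depot next to the testis, taken from 24 male C57BL/6JRcc mice aged 28 or 29 weeks. The semi-synthetic diet of 12 mice held 0 mg nicotinamide riboside (NR) per kg for 18 weeks (No NR), and that of the other 12 held 30 mg per kg (Ctrl NR). NR is a vitamin B3 from which cells make NAD. Both diets gave 40% of energy as fat and a low but sufficient 0.115% tryptophan, another source of NAD, and all mice had first eaten the Ctrl NR diet for 2 weeks. All mice were given little food at the start of the dark phase, refed at the start of the light phase and killed after 4 hours. Tissue was thus taken at 1 time of day, and a shift in the phase of the clock and a change in its level cannot be told apart.

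Background on the loop helps in reading the values. In mammalian cells the proteins of Arntl and Clock, or of Clock's relative Npas2, pair up and switch on genes that carry an E-box, among them the Per, Cry and Nr1d genes. PER and CRY proteins return to the nucleus and block that pair, and NR1D1 and NR1D2 (REV-ERB alpha and beta) repress Arntl through elements that the ROR receptors use to activate it. Arntl transcripts therefore peak at another time of day than those of the Per and Nr1d genes, in fat as in other mouse tissues.

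Promoter windows are shown for Arntl and for 4 repressor genes, Per1, Per3, Cry2 and Nr1d1. The negative relation to Arntl from mouse to mouse, given below, passed its test for Per1, Per3 and Cry2 and not for Nr1d1. For Arntl and Per1 the window shown is the one with a match, and a further window of each held none of the motifs. All are RefSeq windows of 300 bases on build GRCm38.p6, from 250 bases before to 50 after the annotated start. They are written 5′ to 3′ on the gene's strand, with the motif matches in capitals.
Arntl, chr7:113207261-113207560, plus strand: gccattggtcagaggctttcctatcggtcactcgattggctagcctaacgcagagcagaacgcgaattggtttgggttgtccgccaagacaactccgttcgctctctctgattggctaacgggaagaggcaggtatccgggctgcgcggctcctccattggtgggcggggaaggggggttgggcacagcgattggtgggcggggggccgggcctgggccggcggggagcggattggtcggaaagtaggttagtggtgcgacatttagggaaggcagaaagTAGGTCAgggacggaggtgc
Per1, chr11:69098699-69098998, plus strand: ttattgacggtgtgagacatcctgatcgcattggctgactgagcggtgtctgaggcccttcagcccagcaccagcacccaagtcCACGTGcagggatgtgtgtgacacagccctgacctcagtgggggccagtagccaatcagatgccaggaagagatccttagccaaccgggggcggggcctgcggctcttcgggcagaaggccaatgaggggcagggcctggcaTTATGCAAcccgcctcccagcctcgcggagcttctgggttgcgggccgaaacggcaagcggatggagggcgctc
Per3, chr4:151044616-151044915, minus strand: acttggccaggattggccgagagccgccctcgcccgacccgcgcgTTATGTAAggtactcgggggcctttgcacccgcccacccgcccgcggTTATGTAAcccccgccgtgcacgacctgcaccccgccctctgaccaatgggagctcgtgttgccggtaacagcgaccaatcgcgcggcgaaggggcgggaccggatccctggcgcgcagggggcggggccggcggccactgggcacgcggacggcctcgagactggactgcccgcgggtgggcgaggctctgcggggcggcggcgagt
Cry2, chr2:92434020-92434319, minus strand: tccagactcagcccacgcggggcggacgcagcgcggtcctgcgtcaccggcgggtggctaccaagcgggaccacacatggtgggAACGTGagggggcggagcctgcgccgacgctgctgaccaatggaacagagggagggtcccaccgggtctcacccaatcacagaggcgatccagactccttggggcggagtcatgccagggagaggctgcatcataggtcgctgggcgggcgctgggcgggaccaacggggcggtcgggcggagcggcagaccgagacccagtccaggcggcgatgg
Nr1d1, chr11:98775328-98775627, minus strand: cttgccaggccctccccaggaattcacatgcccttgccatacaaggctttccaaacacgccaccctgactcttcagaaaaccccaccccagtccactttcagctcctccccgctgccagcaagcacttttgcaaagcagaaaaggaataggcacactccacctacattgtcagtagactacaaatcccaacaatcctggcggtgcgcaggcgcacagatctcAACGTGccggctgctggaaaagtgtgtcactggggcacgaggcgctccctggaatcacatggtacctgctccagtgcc
The letters searched, on both strands, were the E-box CACGTG, its variant CACGTT, the D-box core TTATGNAA that DBP, TEF and HLF bind, and TAGGTCA, the core of the element shared by the ROR and NR1D receptors. Counted from the first base shown, the Arntl window held TAGGTCA at bases 281 to 287. The Per1 window held an E-box at bases 85 to 90 and a D-box core at bases 227 to 234, and the Per3 window held D-box cores at bases 46 to 53 and 93 to 100. The Cry2 and Nr1d1 windows held the E-box variant, read on the opposite strand, at bases 85 to 90 and 223 to 228. Of all 32851 promoter windows in the table, 7.15% held the E-box, 4.68% its variant, 3.38% the D-box core and 2.61% TAGGTCA. Of the 10 genes, 9 matched the table, with 13 windows, and 6 of these 9 held at least 1 of the motifs. Clock, Npas2 and Nr1d2 held none of the motifs in any window, and their windows are not shown. Each window shown held a match, so those printed do not stand for the whole loop. The percentages above are per window and per motif. The share of all genes with any of the motifs was not computed, so the 6 of 9 cannot be read as more than usual. A match describes the letters and not a bound site.

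On each array the RNA of 1 mouse, labelled with Cy5, competed with a Cy3-labelled reference pool from the same depot, to which mice on further diets, 4 females among them, had contributed. A value is the log2 ratio of the mouse over the pool, so that 0 is the level of the pool, and a diet difference is No NR minus Ctrl NR. The share of spots with a Cy5 signal well above background ran from 34.5% to 50.7% over the arrays. Precision is limited by how many arrays there are, and the median standard error of a diet difference over all features was 0.081. The arrays lay on 5 slides, each scanned together and each holding mice of both diets. All 10 adipocyte markers on the list, among them Adipoq, Fabp4 and Plin1, were well above background on every array. Of 8 markers of epididymis and testis, 3 passed the filter on signal and the other 5 did not. In bulk tissue, fewer cells of a type and less RNA per cell cannot be told apart.

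No gene of the loop differed between the diets after adjustment. Of the 8 measured genes, 5 had higher and 3 had lower mean values in No NR mice, and 0 passed a Benjamini-Hochberg adjusted p of 0.05 in limma, as did 0% of all features. At an unadjusted p under 0.05 there was 1 of the 8 (12.5%), Nr1d2, against 14.1% of all features, so the count is near that of the whole array. The median diet difference of the 8 genes was 0.07, against -0.01 over all features, and the median size without sign was 0.105, against 0.0813. The log2 ratios of the single mice are plotted gene by gene.

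**Figure D1:**
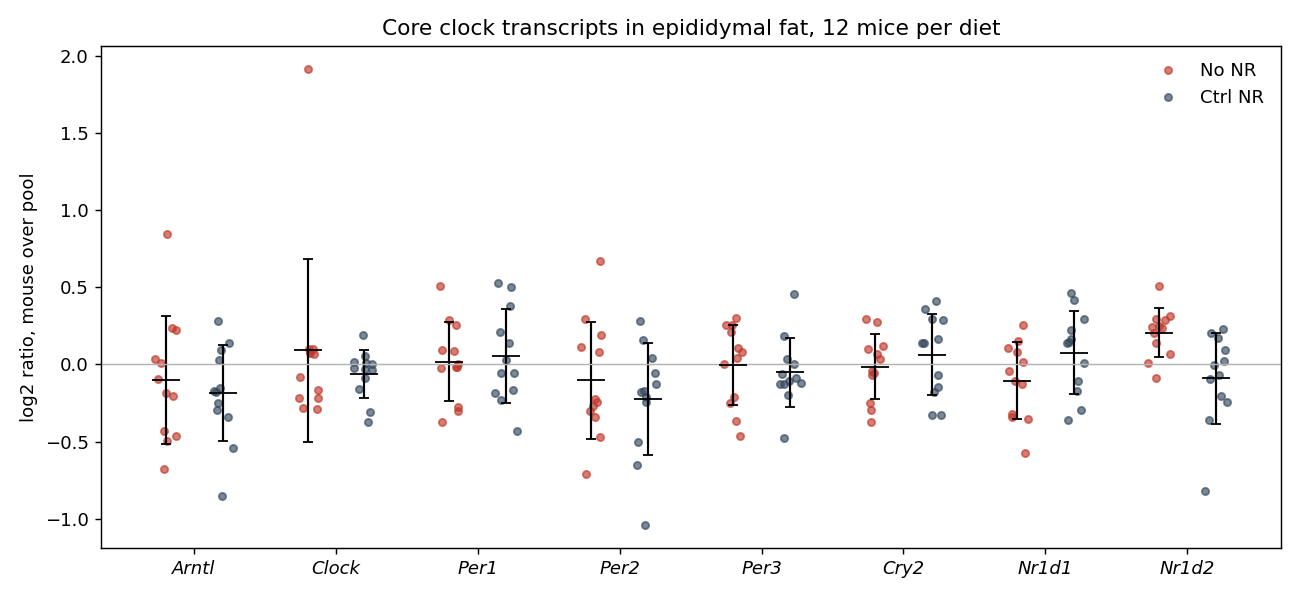
Log2 ratio over the pool (vertical axis) of the 8 measured core clock genes, 1 point per mouse, with No NR mice (red) left of Ctrl NR mice (grey) and bars for mean ± SD, n = 12 per diet. The diets overlap for every gene, and 1 No NR mouse stands alone at 1.92 for Clock.

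The activators come first. Arntl, which encodes the partner that every activating pair of the loop needs, had a lowest, median and highest log2 ratio of -0.68, -0.14 and 0.85 in No NR mice, against -0.85, -0.18 and 0.28 in Ctrl NR mice. The groups overlapped over most of their range, and the single highest value was that of mouse No NR 81. The means were -0.10 ± 0.41 and -0.19 ± 0.31 (SD, n = 12 each), a diet difference of 0.09 (SE 0.139, limma adjusted p = 0.803). Arntl was a dim probe, well above background on 11 of 12 arrays of each diet.

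Clock, the partner of Arntl, ranged in No NR mice from -0.29 to 1.92 with a median of -0.01, against -0.38 to 0.19 with a median of -0.03 in Ctrl NR mice. A single mouse, No NR 74, held the value of 1.92, and all other mice of both diets lay at or below 0.19. The diet difference was 0.15 (SE 0.164, limma adjusted p = 0.692), and without that mouse it was -0.01 (SE 0.0696, limma adjusted p = 0.952). In the same mouse Arntl was at -0.20, Per1 at 0.09, Per2 at 0.08 and Per3 at 0.08, inside the range of the other mice. Npas2, whose protein can stand in for CLOCK, was well above background on 0 of 24 arrays, so its level was not measured.

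Of the Per genes, whose proteins carry the repression of the loop, none differed by diet. Per1, which also responds to glucocorticoids, had a lowest, median and highest log2 ratio of -0.37, -0.01 and 0.51 in No NR mice, against -0.43, -0.02 and 0.53 in Ctrl NR mice. The groups overlapped almost wholly, with a diet difference of -0.04 (SE 0.109, limma adjusted p = 0.904). Per2 had -0.71, -0.23 and 0.67 in No NR mice, against -1.04, -0.17 and 0.28 in Ctrl NR mice, and a diet difference of 0.12 (SE 0.141, limma adjusted p = 0.717). Mouse Ctrl NR 64 was the lowest for Per2 and mouse No NR 78 the highest. Per3, the member of the family that the loop can run without, had -0.46, 0.06 and 0.30 in No NR mice, against -0.48, -0.10 and 0.46 in Ctrl NR mice. Its diet difference was 0.05 (SE 0.0957, limma adjusted p = 0.845), on a probe well above background on 22 of 24 arrays.

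Cry2, which encodes one of the cryptochromes that block the activating pair, had a lowest, median and highest log2 ratio of -0.38, -0.01 and 0.30 in No NR mice, against -0.33, 0.14 and 0.41 in Ctrl NR mice. The groups overlapped, with a diet difference of -0.08 (SE 0.0942, limma adjusted p = 0.729). Cry1, the other cryptochrome, was well above background on 1 array of each diet and did not pass the filter.

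The pair of nuclear receptors that repress Arntl had diet differences of opposite sign. Nr1d2 had a lowest, median and highest log2 ratio of -0.09, 0.24 and 0.51 in No NR mice, against -0.82, -0.04 and 0.23 in Ctrl NR mice. Most No NR mice lay above 0 and the Ctrl NR mice lay on both sides of it, with mouse Ctrl NR 64 far below the rest, and the groups overlapped. The means were 0.21 ± 0.16 and -0.09 ± 0.29 (SD, n = 12 each), a diet difference of 0.30 (SE 0.0934, 95% interval 0.10 to 0.49, 1.23-fold). Its unadjusted limma p was 0.00389 and its adjusted p 0.159, so it did not pass over all features. The difference was 0.27, 0.31, 0.46, 0.29 and 0.17 within slides 1 to 5.

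Nr1d1 had a lowest, median and highest log2 ratio of -0.57, -0.07 and 0.26 in No NR mice, against -0.36, 0.14 and 0.46 in Ctrl NR mice, and the groups overlapped. The means were -0.11 ± 0.25 and 0.08 ± 0.27 (SD, n = 12 each), a diet difference of -0.18 (SE 0.101, 95% interval -0.39 to 0.03, limma adjusted p = 0.42). Within slides it was -0.38, -0.20, -0.29 and -0.43 on slides 2 to 5 and 0.59 on slide 1, which held 1 No NR and 2 Ctrl NR mice. The difference between the diet effects of the 2 genes was not tested. From mouse to mouse within diets their relation did not pass (Pearson r = 0.118, rho = 0.166, permutation adjusted p = 0.793), with r up to 0.287 when Ctrl NR 64 was left out.

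Around the loop, 22 of 24 other clock genes were measured, of which 8 had higher and 14 lower mean values in No NR mice, with a median diet difference of -0.05. None passed the adjusted threshold in limma, and 5 (22.7%) had an unadjusted p under 0.05, against 14.1% of all features. The difference between these shares was not tested. Among those lower in No NR mice, Csnk1e, a kinase of the PER proteins, was at -0.19 (SE 0.0769, adjusted p = 0.265). Bhlhe40 and Bhlhe41 (DEC1 and DEC2), repressors that compete for E-boxes, were at -0.22 (SE 0.0895) and -0.17 (SE 0.0816). Usp2, a deubiquitinase, was at -0.44 (SE 0.211, adjusted p = 0.345) and is named after its value was seen. The output factors Dbp, Tef, Hlf and Nfil3, which act on D-boxes, were at -0.01, -0.02, -0.16 and -0.19, and the receptor gene Rora, whose product activates Arntl, at -0.03. Ciart, a further repressor of the activating pair, was at 0.01. Nampt, the NAD salvage enzyme whose gene the clock drives, was at 0.08 (SE 0.0983) and the NAD-dependent deacetylase gene Sirt1 at -0.08 (SE 0.115). None of these passed.

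**Figure D2:**
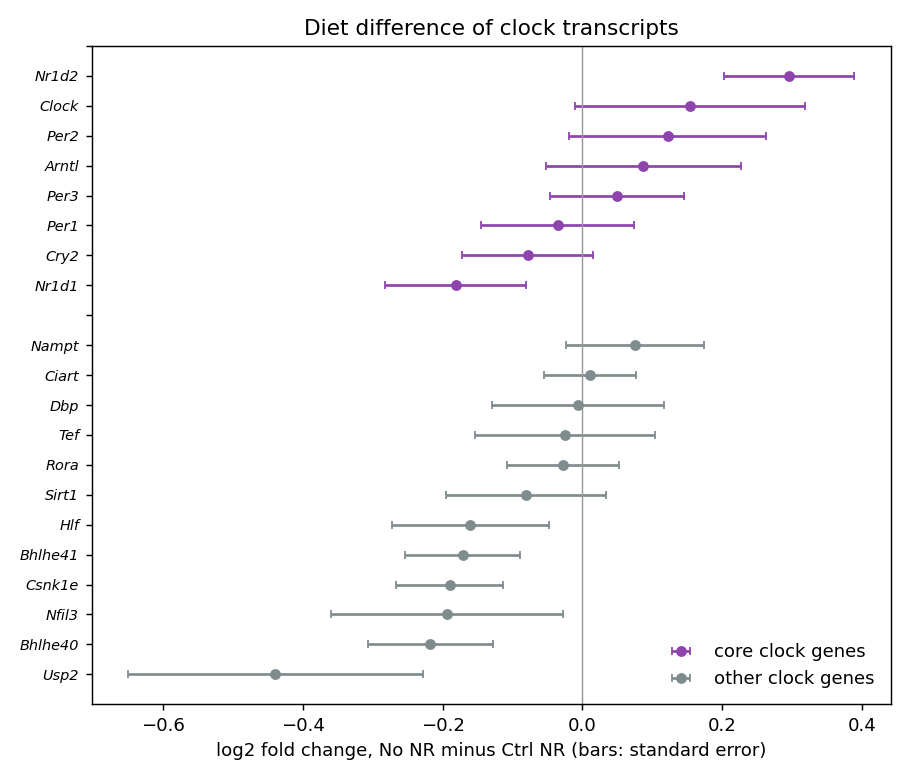
Log2 fold change between the diets, No NR minus Ctrl NR (horizontal axis), with the standard error as a bar, for the 8 measured core clock genes (purple, top) and the other clock genes named in the text (grey), each set ordered by value. Nr1d2 at 0.30 and Nr1d1 at -0.18 are the extremes of the core genes.

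The genes of the loop differed in how widely they varied from mouse to mouse within diets. The SD within diets was 0.435 for Clock, 0.370 for Per2, 0.366 for Arntl and 0.280 for Per1, at percentiles 94.8, 91.6, 91.3 and 80.7 of all features. It was 0.258 for Nr1d1, 0.242 for Per3, 0.238 for Cry2 and 0.236 for Nr1d2, at percentiles 75.3, 70.3, 68.7 and 67.9. The value of Clock includes mouse No NR 74. The spread was not shown to differ between No NR and Ctrl NR mice for any of the 8 genes (permutation test of the mean absolute deviation, lowest adjusted p = 0.589).

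Activators and repressors were then compared from mouse to mouse. With the diet means removed, Arntl ran against 4 repressor genes and 3 of those ran with each other. Of 28 measured pairs, 7 passed a 2-sided permutation test of Pearson r within diets, adjusted over the 28. How many pairs of other genes would pass the same test was not computed, so the count is not shown to be particular to the loop. Across the 24 mice, lower Arntl values went with higher values of Per1, Per2, Per3 and Cry2. At one end, Ctrl NR 95, lowest for Arntl at -0.85, had Per1 at 0.53, Per2 at 0.16, Cry2 at 0.36 and Per3 at 0.00, the level of the pool, and its Arntl signal was not well above background. At the other, No NR 81, highest for Arntl at 0.85, had Per1 at -0.30, Per2 at -0.34, Per3 at -0.46 and Cry2 at -0.25.

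**Figure D3:**
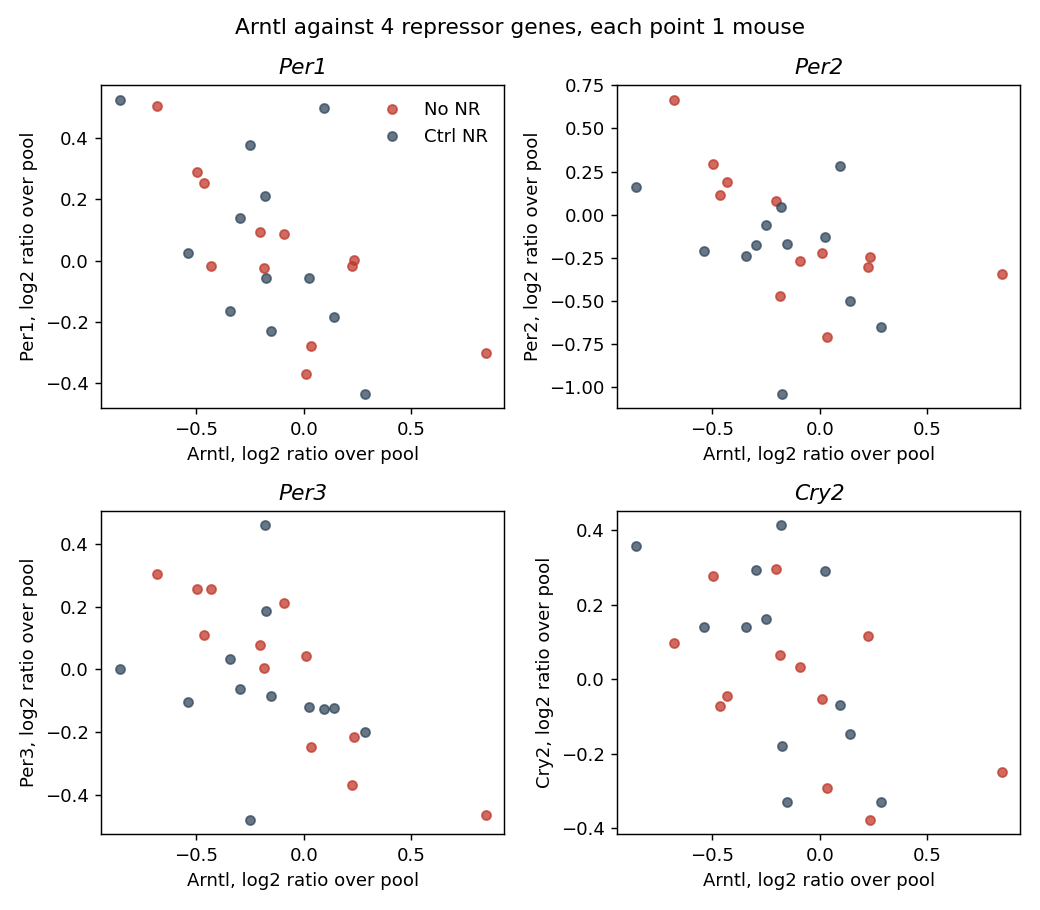
Log2 ratio over the pool of Per1, Per2, Per3 and Cry2 (vertical axes) against that of Arntl (horizontal axes), each point 1 mouse, No NR in red and Ctrl NR in grey. Each gene slopes down as Arntl goes up, and for Per3 the No NR mice (r = -0.898) lie closer to a line than the Ctrl NR mice (r = -0.163).

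Arntl against Per1 had r = -0.613 over 24 mice (rho = -0.625, permutation adjusted p = 0.0202), with r = -0.743 in No NR mice and -0.499 in Ctrl NR mice. Arntl against Per3 had r = -0.608 (rho = -0.693, adjusted p = 0.0233), with -0.898 in No NR mice and -0.163 in Ctrl NR mice. Arntl against Cry2 had r = -0.547 (rho = -0.58, adjusted p = 0.0305), with -0.55 in No NR mice and -0.582 in Ctrl NR mice. Arntl against Per2 had r = -0.539 (rho = -0.609, adjusted p = 0.0337), with -0.695 in No NR mice and -0.33 in Ctrl NR mice. All of these were negative in both diets. The difference in r between the diets passed for none of the 28 pairs (lowest for Arntl and Per3, permutation p = 0.0102, adjusted p = 0.287).

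Among the repressor genes, Per1 and Per2 were the closest pair, at r = 0.745 (rho = 0.779, permutation adjusted p = 0.00168), with 0.799 in No NR mice and 0.705 in Ctrl NR mice. Cry2 went with Per1 at r = 0.571 (rho = 0.603, adjusted p = 0.0305) and with Per2 at r = 0.538 (rho = 0.548, adjusted p = 0.0337). Per3 was further from its family, at 0.315 with Per1 and 0.354 with Per2, neither of which passed. Nr1d1 and Nr1d2 passed with no other gene: against Arntl they had r = -0.175 and -0.20, and the highest value was 0.408, between Nr1d2 and Per2 (adjusted p = 0.167), which was 0.112 without mouse Ctrl NR 64, the lowest for both. Clock had r = 0.105 with Arntl, its partner, and 0.457 without No NR 74 (adjusted p = 0.092), and it had r = -0.12 with Per3, which was -0.53 without that mouse and then passed (adjusted p = 0.0461). A p that misses the threshold does not show that genes were unrelated.

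**Figure D4:**
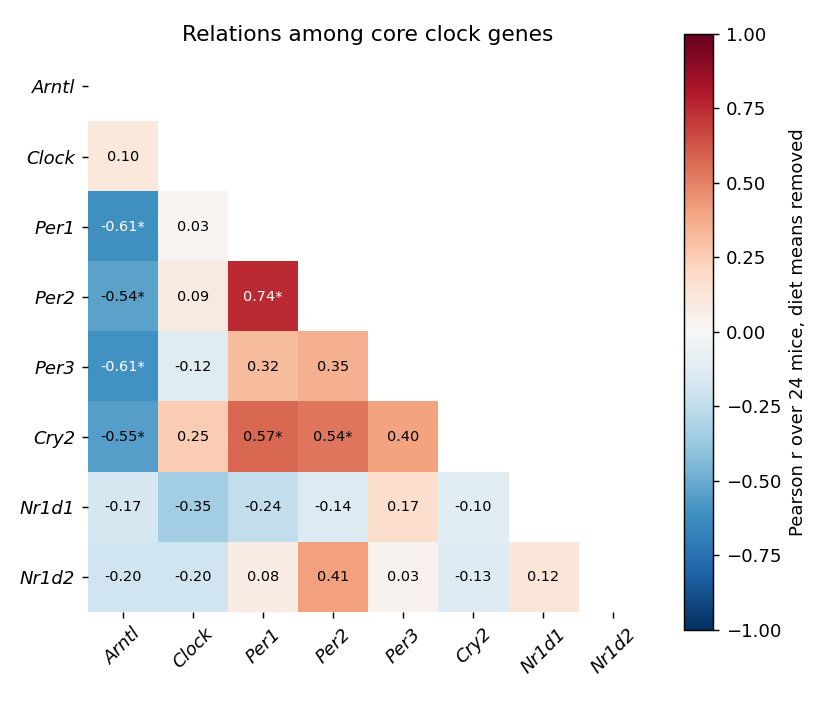
Pearson r over 24 mice with the diet means removed, for each pair of the 8 measured core clock genes (red positive, blue negative), with a star where the permutation p adjusted over 28 pairs was under 0.05. The 7 starred pairs lie among Arntl, Per1, Per2, Per3 and Cry2, and the Clock, Nr1d1 and Nr1d2 rows hold none.

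Without the 2 mice farthest from the median of the first gene, the 4 Arntl pairs kept r between -0.537 and -0.468 and the 3 repressor pairs between 0.528 and 0.665. With slide means also removed, 8 pairs passed, among them all 7. Several calls turned on single mice, however: without No NR 81, 1 pair passed (Per1 and Per2), without Ctrl NR 95, 2, and without No NR 98, Ctrl NR 88 or Ctrl NR 108, 3 each. Without No NR 70, No NR 78, No NR 118 or Ctrl NR 75, 6 passed, and without No NR 90, 5. Per1 and Per2 passed whichever mouse was left out. Over these fits the r of Arntl lay between -0.731 and -0.544 with Per1, -0.691 and -0.492 with Per3, -0.593 and -0.496 with Cry2 and -0.629 and -0.453 with Per2.

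The mean of macrophage marker transcripts moved with several of the same genes, and cells were not counted. The mean log2 ratio of 15 measured macrophage markers (of 16 listed) ran from -1.21 to 0.68, median 0.16, in No NR mice and from -1.89 to 0.68, median -0.36, in Ctrl NR mice, and the diets overlapped. Arntl was higher where that mean was higher (r = 0.651, rho = 0.725, permutation adjusted p = 0.0016, over 8 genes). Per1 (r = -0.679, rho = -0.674, adjusted p = 0.00171), Per2 (r = -0.634, rho = -0.633, adjusted p = 0.0022) and Cry2 (r = -0.76, rho = -0.826, adjusted p = 0.00056) ran against it. Per3 (r = -0.331), Clock (-0.21), Nr1d1 (0.0831) and Nr1d2 (0.109) did not pass. Per3 passed without Ctrl NR 115 (r = -0.569, adjusted p = 0.00869), in the authors' value table (-0.662, adjusted p = 0.00134) and without background subtraction (-0.481, adjusted p = 0.0315). Clock was at 0.0615 without No NR 74. Under median centring Clock, Nr1d1 and Nr1d2 passed with a positive r (0.518, 0.737 and 0.73), and Per2 at 0.27 did not. Cd68 had no named probe on the array, and the 15 measured markers were well above background on 23 or 24 arrays, and all 15 had higher mean values in No NR mice. In limma 2 of the 15 (13.3%) had an unadjusted p under 0.05, against 14.1% of all features, and 0 passed after adjustment.

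When the macrophage mean was removed from both genes, 0 of 28 pairs passed and 3 had an unadjusted permutation p under 0.05. Arntl against Per3 was then at r = -0.548 (adjusted p = 0.118) and Per1 with Per2 at 0.554 (adjusted p = 0.243). The third was Per2 with Nr1d2 at 0.621 (adjusted p = 0.118), a pair not among the 7. The other 5 of the 7 lay between -0.306 and 0.115, with Arntl against Per1 at -0.306, against Per2 at -0.215 and against Cry2 at -0.107. Whether cell make-up had a part in these relations was not tested.

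Of 11 lists, the macrophage list included, 7 were related to at least 1 of the 8 genes and 4 to none. Of the 88 relations, 28 passed a permutation p adjusted over all 88. These cannot be counted as separate, since list means also moved together. In Ctrl NR 88 the macrophage, cell cycle, immediate early and adipocyte means were 0.68, 0.66, 0.43 and -0.48, and in Ctrl NR 75 -1.57, -1.23, -0.70 and 0.28. How closely the lists followed each other, and the share of other genes that would pass, were not computed. The adipocyte mean had r = -0.653 with Arntl, 0.638 with Per1, 0.687 with Per2 and 0.707 with Cry2 (adjusted permutation p = 0.00409, 0.0051, 0.0029 and 0.00286). The mean of 7 immediate early genes, which respond to handling, had r = 0.68 with Arntl and -0.622 with Per1 (adjusted permutation p = 0.00277 and 0.00844). It had r = -0.664 with Per2, -0.726 with Cry2 and -0.496 with Per3 (adjusted permutation p = 0.00333, 0.00277 and 0.0463). Its genes were not scaled to equal spread. Atf3 (SD 0.87 in No NR and 1.03 in Ctrl NR mice) and Fos (0.71 and 0.80) varied most. Junb was well above background on only 8 of 24 arrays, and Fosb and Ier2 on 21 each. The mean of 5 glucocorticoid response genes (Per1 left out of its own list) had r = 0.619 with Per2, 0.53 with Per1, 0.513 with Nr1d2 and -0.499 with Arntl (adjusted p = 0.00712, 0.0335, 0.0377 and 0.0464), while Cry2 at 0.336 and Per3 at 0.473 did not pass. The cell cycle mean had r = 0.71 with Arntl, -0.806 with Cry2, -0.685 with Per2 and -0.664 with Per1 (adjusted p = 0.00229, 0.00176, 0.00293 and 0.00407). The endothelial mean had r = -0.698 with Arntl, 0.781 with Cry2, 0.665 with Per2 and 0.562 with Per3 (adjusted p = 0.00229, 0.00205, 0.00333 and 0.015). The stromal progenitor mean had r = 0.625 with Arntl, -0.669 with Per1 and -0.594 with Cry2 (adjusted p = 0.0029, 0.0042 and 0.016). The mesothelial, lymphoid, smooth muscle and epididymis and testis means passed with none of the genes, at r from -0.343 to 0.433 (lowest adjusted p = 0.106). Their part in the relations was not tested.

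The relations also rested on how the arrays were scaled. With each array centred on its median in place of loess, all 28 pairs had a positive r, from 0.104 to 0.914, and 25 passed. The 4 Arntl pairs changed sign, to 0.536 with Per1, 0.322 with Per2, 0.104 with Per3 and 0.60 with Cry2. Under that scaling each of the 8 genes followed the share of spots well above background on the array (r from 0.494 to 0.776), against -0.424 to 0.193 under loess, and each had a larger SD. The authors' value table, scaled by a method of their own, gave the Arntl pairs r of -0.555, -0.605, -0.674 and -0.474 with Per1, Per2, Per3 and Cry2.

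**Figure D5:**
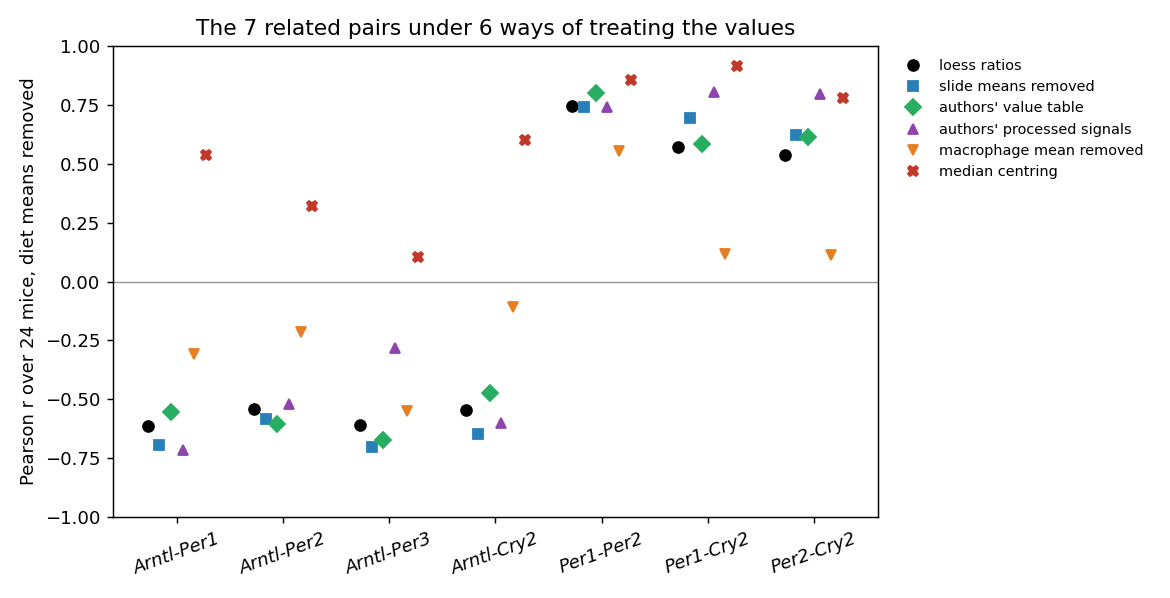
Pearson r over 24 mice with the diet means removed (vertical axis) of the 7 pairs that passed, under loess ratios (black) and 5 other ways of treating the values. The 4 Arntl pairs lie below 0 in each except under median centring (red crosses), and removing the macrophage mean (orange) brings most pairs nearer to 0.

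The loop was next set beside its output and modifier genes, as a description without a test. Against Arntl over 24 mice, Tef had r = -0.796, Dbp -0.663, Rora -0.531 and Hlf -0.462, while Nfil3 had 0.202, Ciart -0.432, Bhlhe40 0.0512 and Bhlhe41 -0.316. Tef also went with Per1 (0.639), Per2 (0.709) and Cry2 (0.722), whereas Dbp was closest to Per3 (0.633). Nr1d1, which passed with no other core gene, had r = 0.484 with Dbp, 0.494 with Rora and -0.585 with Nfil3. Nr1d2 had r = 0.523 with Nampt, which was at -0.472 with Nr1d1.

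Among 9959 named genes well above background on all arrays, those most like Arntl over 24 mice with diet means removed were Shc2 (r = 0.809), an adaptor of receptor tyrosine kinases, Rhoc (0.796), a small GTPase, Akr1b8 (0.775), an aldo-keto reductase, Qpct (0.771), a glutaminyl cyclase, and Ddx31 (0.766), a DEAD-box helicase. The most opposed were Pcsk4 (-0.844), a proprotein convertase, Slc5a6 (-0.818), a vitamin transporter, Tef (-0.796), Tspan13 (-0.782), a tetraspanin, and Man2a2 (-0.779), a mannosidase of the Golgi. The 5 most like Arntl had r from 0.815 to 0.936 with the macrophage mean, and the 5 most opposed from -0.905 to -0.708. Those most like Nr1d1 were Slc25a42 (0.821), a mitochondrial carrier of coenzyme A, Pde4b (0.756), a cAMP phosphodiesterase, Btbd2 (0.744), Mpzl1 (0.712) and Bmf (0.707), a BH3-only protein. The most opposed were Ube2f (-0.768), a NEDD8-conjugating enzyme, St7l (-0.741), Rars2 (-0.736), the mitochondrial arginyl-tRNA synthetase, Mettl16 (-0.724), an RNA methyltransferase, and Slc35a1 (-0.719), the CMP-sialic acid transporter. These 10 had r from -0.373 to 0.517 with the macrophage mean.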

How the data were processed

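RNA of epididymal fat from 24 mice, 12 per diet, was analysed from 24 two-colour arrays of 62976 spots. The deposited scanner files give linear intensity per spot, and the submitters' processing notes name Agilent Feature Extraction 10.7.3.1. Flags are scores of 0 or 1 per the file headers. The authors' deposited value table holds log2 values of 26384 features that follow log2 Cy5 (r at least 0.99, each column's median 8.04); its normalization is not given in the sources used here. All arrays carry the mouse in Cy5, so dye bias cancels between diets.

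Median signals were corrected with normexp (offset 50) and loess in limma 3.58.1 (R 4.3.3). Probes well above background in Cy5 on at least 6 of the 12 arrays of a diet were kept, and the brightest represented its gene. Probes were named through a RefSeq table (assembly GRCm38.p6, 27235 of 55681 probes with 1 symbol); the file headers name build mm9, so only promoter windows carry coordinates. Diets were compared with lmFit and eBayes over 21063 features. Relations used 100000 permutations of mice within diets (Python 3.11.15, SciPy 1.17.1). Of 45 planned pairs, 28 were measured, since Npas2 and Cry1 did not pass the filter. P-values measure the spread between individual mice. Named were all 10 genes; of the other clock genes the 4 with the lowest p and a fixed set; and the 5 genes most and least like Arntl and Nr1d1. The members and lists were chosen with earlier results of these data known. Other normalizations, filters, slide terms and leaving out each mouse were tried as alternatives. Methods were tested on simulated data. No mouse was shared between diets. Results on withheld items are not reported here.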

Additional observations from a re-analysis of the deposited data

How the results depend on the processing

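No gene of the loop passed the adjusted threshold for diet under any of the 34 other settings tried. The number of features at an unadjusted p under 0.05 was 264 with median centring, against 2975, and none of the core genes was then among them, while Nr1d2 kept its sign. Without Ctrl NR 115, Ctrl NR 117 or No NR 118, 2 core genes had an unadjusted p under 0.05 in place of 1. The diet difference changed sign for Arntl in the authors' value table (-0.00167), for Clock without 1 mouse (range -0.0118, without No NR 74, to 0.189) and for Per1 in the authors' processed signals (0.0408), without Ctrl NR 95 (0.00719) and without Ctrl NR 117 (0.00481), in a range down to -0.0801 with 1 mouse left out. The number of related pairs was 0 with the macrophage mean removed, 25 with median centring and between 1 and 8 with 1 mouse left out, against 7. Median centring reversed Arntl with Per1 (0.536), Per2 (0.322), Per3 (0.104) and Cry2 (0.6), and the macrophage relations of Per1 (0.571), Per2 (0.27) and Cry2 (0.599). The cause was not tested. The authors' processed signals, added after seeing the data, gave 6 related pairs, 5 of them shared. No paired analysis was possible because the diets share no mouse number. Arntl and Per3, near background on some arrays, are limited by signal.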
